A study of Mus musculus with 3 samples.

Results

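The regions described here are stretches of DNA that were called as methylated in epididymal fat of mice on a normal diet and in neither of the other libraries of the study. The assay was MeDIP-seq: an antibody against methylated cytosine pulls down DNA fragments, the recovered DNA is sequenced, and places where fragments pile up are called as peaks. There were 11804 such regions among 154503 merged autosomal regions, which is 7.64% of them. They were selected on the peak calls themselves. Autosomal peaks of the 3 lists were pooled, peaks sharing at least 1 bp were merged, and a region was kept if it held a peak of the normal-diet library and no peak of another library. Each of the 11804 regions turned out to be exactly 1 normal-diet peak. Their number and their absence from the other lists are therefore description and carry no test.

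All mice were male C57BL/6J animals, 6 weeks old at the start and 16 weeks old when epididymal fat was taken, after 10 weeks of diet. FAD mice received a high-fat diet with about 60% of its energy from fat plus folic acid at 20 μg/mL in the drinking water, HFD mice received the same high-fat diet alone, and ND mice received a diet with about 10% of energy from fat. The labels name no allele or transgene. Each diet has 1 library, and the sources used here do not give the number of animals behind it. The diets therefore cannot be told apart from the libraries, no difference has a replicate check, and no p-value is given. The deposited data are peak lists with a score per peak, so the read depth is unknown and the tissue could not be checked by gene expression. Wilson 95% intervals cover counting error over regions only.

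In vertebrate DNA, methyl groups sit mainly on the cytosine of CpG dinucleotides. Most CpGs outside promoters are methylated in somatic cells, while CpG-dense promoters (CpG islands) mostly are not, and methylation at a promoter often goes with silence of the gene. Folate feeds one-carbon metabolism, which makes the methyl donor S-adenosylmethionine for DNA methyltransferases. MeDIP recovers DNA in proportion to the number of methylated cytosines per fragment, so CpG-poor DNA gives weak peaks even when it is methylated.

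Some ND-only regions reached into the promoter of a gene, and the DNA there is shown because these are the places where the methylation call and a promoter coincide. RefSeq promoter windows of assembly GRCm38.p6 (the assembly of mm10, the build of the peaks) run from 250 bases before to 50 bases after a transcription start. Of 31363 such windows, 91 were overlapped by an ND-only region. The 5 named protein-coding genes with the highest score are printed in the direction of transcription, with every CpG in capitals. Arntl2 is added, after its value was seen, as a CpG-poor window of a gene of the circadian clock.
Gcg: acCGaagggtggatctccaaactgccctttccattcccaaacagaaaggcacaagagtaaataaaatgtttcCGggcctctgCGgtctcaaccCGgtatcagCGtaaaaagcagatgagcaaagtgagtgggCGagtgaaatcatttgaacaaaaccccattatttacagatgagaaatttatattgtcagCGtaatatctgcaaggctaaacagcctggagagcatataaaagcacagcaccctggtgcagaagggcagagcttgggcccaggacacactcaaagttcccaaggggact
Trp73: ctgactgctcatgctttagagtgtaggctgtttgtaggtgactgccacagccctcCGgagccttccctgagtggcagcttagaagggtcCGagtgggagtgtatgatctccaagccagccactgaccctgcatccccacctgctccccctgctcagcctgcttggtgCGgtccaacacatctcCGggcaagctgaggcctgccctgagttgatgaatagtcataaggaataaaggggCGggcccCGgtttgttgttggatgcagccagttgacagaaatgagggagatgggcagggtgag
Shroom3: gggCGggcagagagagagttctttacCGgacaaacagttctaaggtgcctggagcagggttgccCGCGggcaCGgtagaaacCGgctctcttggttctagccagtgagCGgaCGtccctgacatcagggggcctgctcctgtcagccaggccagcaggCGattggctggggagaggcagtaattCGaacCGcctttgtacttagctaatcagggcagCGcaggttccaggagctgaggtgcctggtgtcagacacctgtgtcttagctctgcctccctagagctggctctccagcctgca
Ffar1: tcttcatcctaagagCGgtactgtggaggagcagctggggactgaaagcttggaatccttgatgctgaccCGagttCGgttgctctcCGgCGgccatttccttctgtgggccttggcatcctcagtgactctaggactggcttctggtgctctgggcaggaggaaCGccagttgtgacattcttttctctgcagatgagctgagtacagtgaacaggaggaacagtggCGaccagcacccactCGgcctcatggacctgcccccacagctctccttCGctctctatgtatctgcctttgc
Marcksl1: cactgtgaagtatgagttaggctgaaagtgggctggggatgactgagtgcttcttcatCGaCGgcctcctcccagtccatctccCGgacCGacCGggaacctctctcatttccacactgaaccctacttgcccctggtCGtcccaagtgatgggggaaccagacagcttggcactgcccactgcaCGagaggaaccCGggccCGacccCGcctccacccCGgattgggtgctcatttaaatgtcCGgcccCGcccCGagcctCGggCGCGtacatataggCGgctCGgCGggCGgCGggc
Arntl2: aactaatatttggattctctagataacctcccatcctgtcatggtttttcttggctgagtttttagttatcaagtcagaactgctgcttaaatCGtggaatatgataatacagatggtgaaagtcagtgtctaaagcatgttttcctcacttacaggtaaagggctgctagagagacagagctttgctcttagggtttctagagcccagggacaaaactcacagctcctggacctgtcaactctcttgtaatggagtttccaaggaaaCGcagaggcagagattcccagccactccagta

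Gcg encodes proglucagon, the precursor of glucagon and of the glucagon-like peptides. Its window (chr2:62483604-62483903, minus strand) has 7 CpGs, and the ND-only region chr2:62483635-62484019 covers 269 of its bases, with a score of 114.46. Trp73, a gene of the p53 family of transcription factors, was overlapped at an alternative start inside its record, where the window chr4:154097124-154097423 (minus strand) has 6 CpGs. Shroom3, which encodes an actin-binding protein that shapes epithelial cells, was likewise overlapped at an alternative start, and the window chr5:92809132-92809431 (plus strand) has 12 CpGs. Ffar1 encodes a receptor for free fatty acids known from pancreatic beta cells. All 300 bases of its window (chr7:30861421-30861720, minus strand, 9 CpGs) lie in the ND-only region chr7:30861282-30861834.

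Of the 6 windows, that of Marcksl1, a substrate of protein kinase C, was the CpG-richest, with 22 CpGs at chr4:129513331-129513630 (plus strand). The ND-only region there touched 80 bases at the upstream edge and ended 171 bp from the start. That at Arntl2 touched 38 bases and ended 213 bp from an alternative start inside the gene record. In the other 4 genes a start was covered. The observed CpG number of the Marcksl1 window was 0.728 times the number expected from its base composition. That ratio was 0.423 for Gcg, 0.242 for Trp73, 0.443 for Shroom3, 0.378 for Ffar1 and 0.142 for Arntl2, whose window chr6:146805280-146805579 (plus strand) holds 2 CpGs.

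Over all 91 windows with an ND-only region, the median was 7 CpGs, with quartiles of 4 and 10. ND regions shared with HFD or FAD overlapped 1117 windows with a median of 8 CpGs, and 29648 windows without a peak in any library had a median of 7 with quartiles of 3 and 21. Windows with an observed-to-expected CpG ratio of at least 0.6, a usual mark of CpG islands, made up 13.2% of the ND-only windows (7.71% to 21.6%), 8.01% of 312 HFD-only windows, 11.1% of 54 FAD-only windows, 22.2% of the shared ND windows (19.9% to 24.7%) and 37.4% of the windows without a peak. Most of the promoter windows with an ND-only region were therefore CpG-poor. Between scores of 50 and 60, where ND-only and shared peaks are alike in strength, the share was 9.09% of 33 ND-only windows (3.14% to 23.6%) and 14.9% of 67 shared windows (8.31% to 25.3%), and the intervals overlapped.

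**Figure D1:**
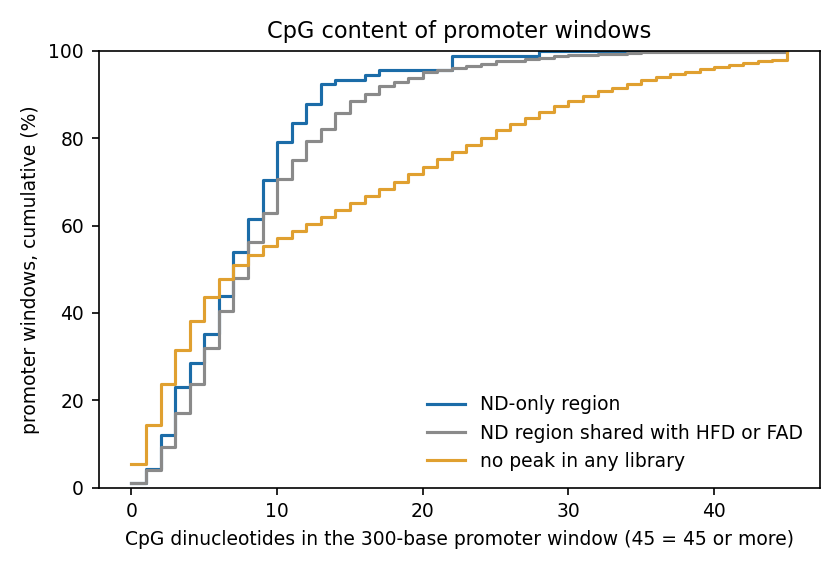
Cumulative share of promoter windows (vertical axis, %) by number of CpG dinucleotides in the 300-base window (horizontal axis), for windows with an ND-only region, with an ND region shared with HFD or FAD, and with no peak. The medians are 7, 8 and 7 CpGs, the ND-only curve lies on or above the shared curve throughout, and the windows without a peak have the longest tail of CpG-rich promoters.

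ND-only regions also overlapped 3 of 919 annotated microRNA hairpins, against 16 for HFD-only regions, 3 for FAD-only regions and 74 for shared ND regions. These sets held 11804, 37304, 9887 and 82460 regions, and 12.3% of all autosomal ND peaks were ND-only. The hairpins are thus named as description and not as a trait of the ND-only regions. The mature microRNAs of the 3 hairpins share no seed (bases 2 to 8, in capitals; sequences from RefSeq, GRCm38.p6).
mmu-miR-29b-3p: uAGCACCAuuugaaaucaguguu
mmu-miR-29b-1-5p: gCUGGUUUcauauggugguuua
mmu-miR-431-5p: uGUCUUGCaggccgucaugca
mmu-miR-431-3p: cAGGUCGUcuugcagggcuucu
mmu-miR-7029-5p: uCUGGACGcucggcugccagcgc
The strongest of these regions lay over Mir29b-1 (hairpin chr6:31063023-31063093), with a score of 79.19 at chr6:31063030-31063496 and the nearest FAD and HFD peaks 1270 and 1268 bp away. Members of the miR-29 family target mRNAs of collagens and of DNA methyltransferases in mouse and human. Mir7029 (chr5:115580949-115581009) was covered by a region with a score of 76.24. Mir431 lies in the imprinted Dlk1-Dio3 domain on chromosome 12, and its hairpin (chr12:109590447-109590537) was covered by a region with a score of 56.53.

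Most ND-only regions were weak peaks close to the lowest score in the list. The authors' score was at least 50 in each list, and the ND-only regions had a median of 64.15 with quartiles of 56.26 and 75.48. The median was 67.69 in HFD-only regions, 64.15 in FAD-only regions and 111.21 in ND regions shared with another library. Of the ND-only regions, 4457 (37.8%) scored below 60, 751 (6.36%) reached 100, 39 reached 150 and 4 reached 200. The scale of the score is not stated, so levels are best compared within the ND list.

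Within that list the share of peaks that were ND-only fell with the score. It was 37.9% in decile 1, the lowest scores, 16.2% in decile 4, 5.07% in decile 6, 0.583% in decile 8 and 0 in decile 10. Just above the edge, the weakest ND-only region was chr11:112588142-112588689 at 50, 193520 bp from Sox9, a transcription factor gene of cartilage and testis. The next 3 scored 50.01 and lay 15875 bp from Rnpc3, 38426 bp from Shisal2b and 181256 bp from Arhgef28.

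**Figure D2:**
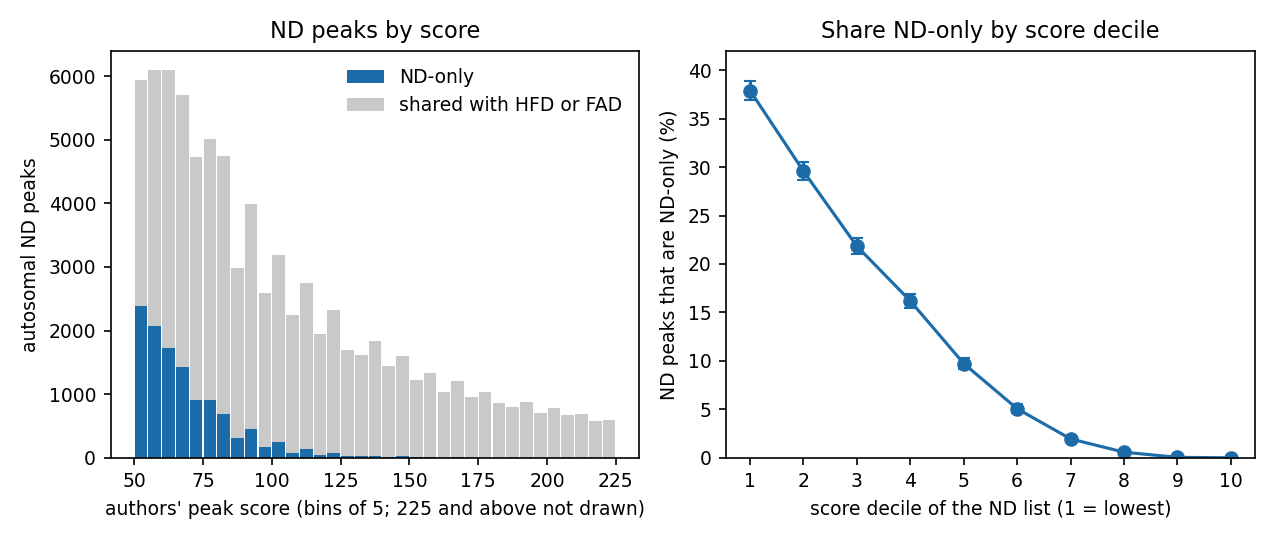
Left: number of autosomal ND peaks by the authors' score (bins of 5), split into ND-only peaks and peaks shared with HFD or FAD. Right: share of ND peaks that are ND-only in each decile of the score, with Wilson 95% intervals, from 37.9% in the lowest to 0 in the highest.

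The number of regions found in 1 library only followed the length of the lists. ND-only regions made up 12.3% of 96063 autosomal ND peaks (12.1% to 12.5%), against 28.7% of 130093 HFD peaks that were HFD-only (28.4% to 28.9%) and 10.9% of 90352 FAD peaks that were FAD-only (10.7% to 11.1%). In covered DNA, the ND-only regions took 5.41 of 55.9 Mb, HFD-only regions 19.6 of 85.2 Mb and FAD-only regions 3.98 of 46.1 Mb. When each list was reduced to its 95501 highest-scoring peaks, the length of the shortest list, there were 14793 ND-only regions (16.4% of the ND peaks), 15721 HFD-only regions (17.1%) and 15298 FAD-only regions (16.9%). The shares were then within 1 percentage point of each other. When each list kept the 50% of its peaks with the highest scores, the shares were 10.8% for ND-only, 28.2% for HFD-only and 9.76% for FAD-only.

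ND-only regions were also narrow. Their median width was 444.5 bp (quartiles 361 and 515, range 187 to 2650), against 508 bp for HFD-only, 399 bp for FAD-only and 686 bp for shared ND regions after merging. At equal score the ND-only peaks were narrower than the shared ND peaks. Median widths were 468 against 479 bp at scores of 50 to 60, 391 against 478 bp at 75 to 100, and 342 against 507 bp at 100 to 150. Among 998 ND peaks of at least 2000 bp, 5 were ND-only. The widest, chr7:52327494-52330143, was 2650 bp long with a score of 67.41 and lay 321475 bp from Svip. The next in width were chr6:47651614-47654122 (2509 bp, score 205.08), chr13:103713499-103715993 (2495 bp, 76.69) near the splicing regulator gene Srek1, chr13:6882934-6884949 (2016 bp, 131.06), 233873 bp from the phosphofructokinase gene Pfkp, and chr3:144829406-144831421 (2016 bp, 108.38) in Clca3b, which ended 25 bp from a FAD peak.

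A substantial share of the ND-only regions lay beside a peak of another library. The gap to the nearest HFD or FAD peak had a median of 3482 bp (quartiles 1110 and 8684), against 6109.5 bp from HFD-only regions and 3815 bp from FAD-only regions to the nearest peak of the other libraries. It was within 500 bp for 12.8% and within 1000 bp for 23.0% of the ND-only regions. The gap exceeded 5000 bp for 4734 regions (40.1%), 10 kb for 21.4% and 50 kb for 101 regions. The nearest peak was an HFD peak for 80.9%. The HFD list is also the longest, and the median distance was 6666.5 bp to FAD, 4050 bp to HFD and 6117 bp to another ND peak.

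At the edge of the rule, 136 ND-only regions ended within 50 bp of an HFD or FAD peak, and 85 shared ND regions overlapped one by 1 to 50 bp. Their median scores were 63.9 and 59.8. An ND-only region in Parp9, a gene induced by interferon (chr16:35950424-35950795, score 66.62), touched an HFD peak with no base between them. One in the smooth muscle myosin gene Myh11 (chr16:14265795-14266360, score 79.99) was 1 bp away from an HFD peak, as was chr2:54309931-54310611 (64.74).

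**Figure D3:**
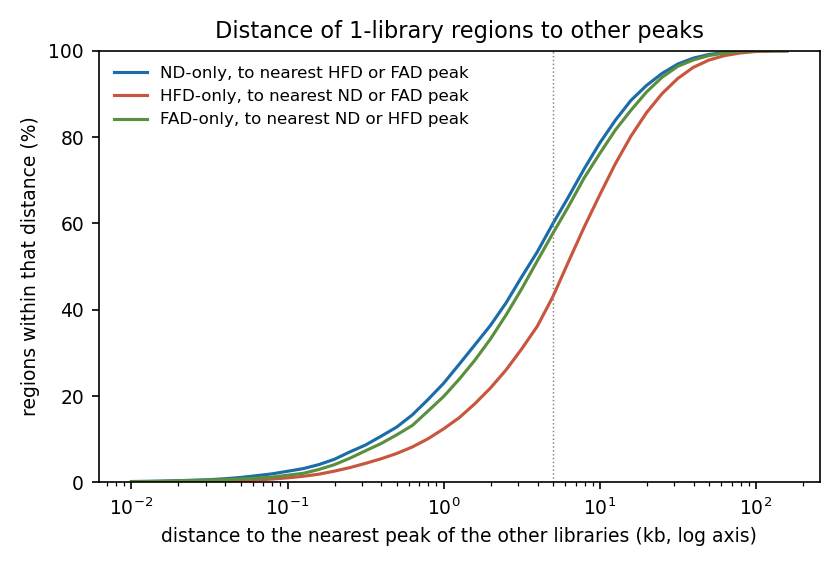
Cumulative share of regions (vertical axis, %) by distance to the nearest peak of the other libraries (kb, log axis), for ND-only, HFD-only and FAD-only regions. The ND-only curve reaches 23.0% at 1 kb and 59.9% at 5 kb (dotted line), above the HFD-only curve, which reaches 42.9% at 5 kb.

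Of the 10 strongest ND-only regions, 7 lay outside protein-coding gene records. For scale, 46.9% of all 11804 ND-only regions lay inside such a record, so a count from 10 regions shows no departure. The highest score, 218.76, belonged to chr7:15044676-15044941, 343909 bp from the homeobox gene Obox2, with the nearest FAD and HFD peaks 27477 and 27198 bp away. It was followed by the 2509 bp region on chromosome 6 (205.08), in the record of Gm40369 and 56343 bp from Ezh2, the histone methyltransferase of Polycomb. Next was chr16:6686212-6686534 in the splicing factor gene Rbfox1 (201.94), with a FAD peak 2149 bp away. Then came chr1:154021658-154022549, 111934 bp from the glutamine synthetase gene Glul (200.16).

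The next on the score list were chr12:87839292-87839821 in a pseudogene record (197.34), chr11:116834707-116834931 at 2500 bp from Jmjd6, which encodes a JmjC-domain oxygenase (189.03), and chr7:7528289-7529508 near the vomeronasal receptor gene Vmn2r33 (187.18). They were followed by chr7:20782149-20782431 near Vmn1r113, another vomeronasal receptor gene (179.44) and chr3:27409175-27409534 at 6600 bp from Fndc3b (172.49). Those in coding records included the regions in Gm40369 and Rbfox1. Among regions with no FAD or HFD peak within 5000 bp, the top 10 also took in regions of scores 168.05 to 171.31 at chr14:108032751-108033474 (876513 bp from its nearest coding gene, Slitrk1), in Gm14308 (chr2:176634532-176634941), in Ltbp1 (chr17:75219406-75219978), which encodes a binding protein of latent TGF-beta, and in the complement gene C6 (chr15:4793846-4794067).

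The 5 regions farthest from FAD and HFD peaks were on chromosomes 1, 2 and 4. At chr1:123168159-123168486 the score was 94.28 and the nearest FAD or HFD peak was 133921 bp away. A region inside Dpp10 (chr1:124344551-124345002, score 85.49) was 130207 bp away. The other 3 were chr4:51652562-51652982, chr4:103964716-103965092 in the reelin adaptor gene Dab1, and chr2:56587811-56588132, with gaps of 125647, 124994 and 116145 bp.

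The share of regions in protein-coding gene records was lower for ND-only regions than for ND regions also called on another diet in the full lists, but not in lists of equal length. A protein-coding gene record was overlapped by 46.9% of the ND-only regions (46.01% to 47.81%), against 49.5% of HFD-only (48.96% to 49.97%), 43.9% of FAD-only (42.9% to 44.8%) and 48.8% of shared ND regions (48.5% to 49.2%). Among the shared regions, those also called in HFD but not in FAD stood at 53.6% (52.8% to 54.3%), and those also called in FAD but not in HFD at 43.8% (42.2% to 45.5%). No record of any kind and no gene-start window was overlapped by 42.9% of the ND-only regions, against 40.7% of shared ND regions. ND-only regions more than 5000 bp from other peaks had 42.4% in coding records (41.0% to 43.8%), against 47.6% of those within 1000 bp (45.7% to 49.4%).

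With lists of equal length the direction turned round, with 49.2% of 14793 ND-only regions (48.40% to 50.01%) and 48.5% of 73969 shared ND regions (48.13% to 48.85%) in coding records, and these intervals overlapped. The order of the 2 shares thus depended on the length of the lists.

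Among weak peaks the ND-only share was lower at equal score. In the full lists, at scores of 50 to 60, 45.4% of ND-only peaks (44.0% to 46.9%) and 51.1% of shared peaks (50.02% to 52.27%) lay in coding records. At 60 to 75 the shares were 47.4% and 52.1%, and at 75 to 100 they were 48.2% and 51.5%. At 100 to 150, with 712 ND-only peaks, they were 48.7% and 49.9% with overlapping intervals, and at 150 and above, with 39 ND-only peaks, they were 46.2% and 43.5%, again with overlapping intervals. With lists of equal length the shares were 46.5% and 53.0% at 50 to 60 and 49.5% and 51.8% at 60 to 75. The intervals overlapped at 75 to 100 (50.2% and 51.3%), at 100 to 150 (50.9% and 49.8%) and at 150 and above (44.95% and 43.53%), and the ND-only share was the higher in the last 2 of these bands.

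**Figure D4:**
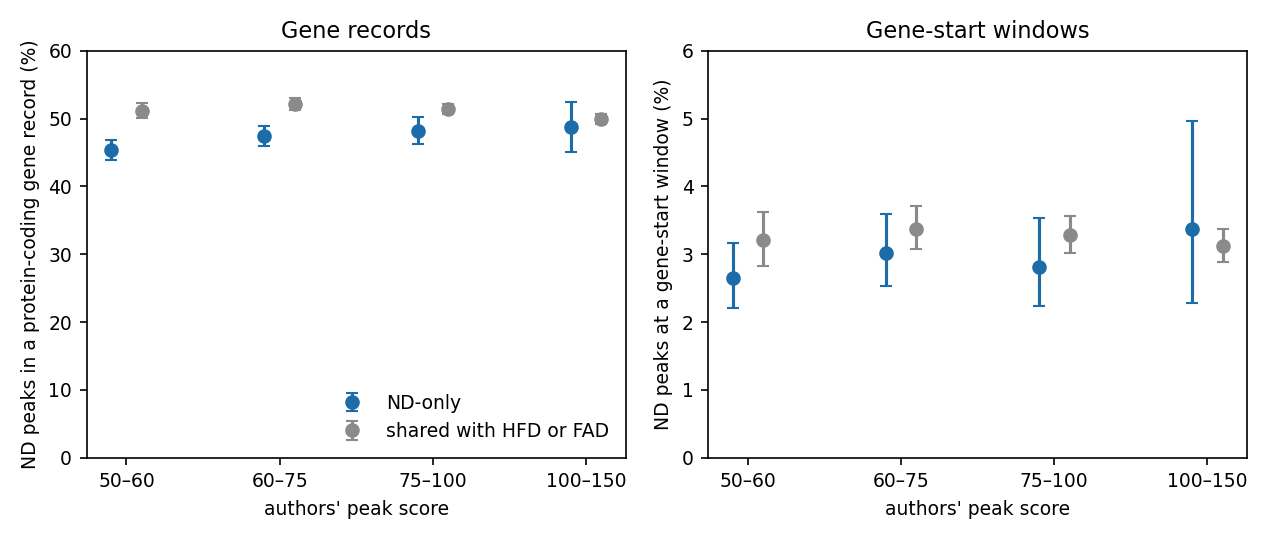
Share of autosomal ND peaks in a protein-coding gene record (left) and at a gene-start window (right), in %, by the authors' score, for ND-only peaks and peaks shared with HFD or FAD, with Wilson 95% intervals. In gene records the ND-only peaks lie below the shared peaks in the 3 lower bands, 45.4% against 51.1% in the lowest (full lists; with lists of equal length the intervals overlap from 75 up), and at gene starts the intervals overlap in every band.

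Gene-start windows ran from 2000 bp outside to 500 bp inside the start for 16457 of 20665 autosomal protein-coding genes whose starts and strand could be placed, and were set at both record ends for the other 4208. Such windows held 337 ND-only regions, 2.85% (2.57% to 3.17%), against 3.17% of HFD-only, 2.56% of FAD-only and 3.30% of shared ND regions (3.18% to 3.42%). In score bands the intervals of ND-only and shared ND peaks overlapped.

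In all, 345 protein-coding genes (1.67%) had an ND-only region at such a window, against 5.71% with an HFD-only and 1.25% with a FAD-only region. They were 12.2% of the 2826 genes with any ND peak at the window. Of all ND peaks 12.3% were ND-only, but that share counts peaks and not genes. In 258 of the 345 (74.8%) no FAD or HFD peak lay in the window either, and in 126 of these the region was also more than 5000 bp from any FAD or HFD peak. Starts and strand could be placed for 219 of the 345 genes, and in 24 of these the region covered a transcription start. More than 1 ND-only region was present at 9 of the 345.

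Provisional Gm and Rik symbols aside, of which Gm40369 had the highest score of all (205.08), the gene with the highest score at its start was Rps6, a protein of the small ribosomal subunit and a target of the insulin-responsive S6 kinase. Its region (chr4:86858112-86858392, score 145.87) lay 745 bp from the start, with the nearest FAD and HFD peaks 20255 and 10062 bp away. Khdc3, a maternal-effect gene of the oocyte, followed with chr9:73102849-73103131 (135.08), 451 bp from an alternative start inside its record. The region over the start of Gcg had no FAD peak within 4326 bp and no HFD peak within 5725 bp. The nearest FAD and HFD peaks lay 7498 and 7407 bp from the Trp73 region (chr4:154096684-154097320, 112.66), 10336 and 9770 bp from that at Shroom3 (chr5:92809324-92809973, 111.70), and 5345 and 4186 bp from that at Ffar1 (106.60). In these 6 genes the windows held no FAD or HFD peak.

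Further genes among the 20 highest were of many kinds. Lhcgr, the receptor for luteinizing hormone, had a region with a score of 110.96 that lay 303 bp from a FAD and 261 bp from an HFD peak, and both of those peaks were in its window as well. Sptlc1, a subunit of the enzyme that starts sphingolipid synthesis, had 2 ND-only regions in its window, the stronger at chr13:53377723-53378009 (104.61). Slc22a2, an organic cation transporter gene and a member of the imprinted list, had one at chr17:12584528-12584821 (104.11), 16194 bp from a FAD and 12208 bp from an HFD peak. At Ttc39a (104.11) those distances were 60586 and 21545 bp, and at Ccm2, which encodes a scaffold protein of endothelial junctions (107.27), they were 10631 and 1453 bp. At Slc35g1 (106.26) they were 11773 and 751 bp.

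For the other 8 genes of this group the strand is not known from the table, so the region may lie at either end of the gene. They were Glt8d2 (116.74), Syt13, a synaptotagmin gene (114.32), Smc4, a core subunit of condensin (114.19), Ggt5, a gamma-glutamyltransferase gene (110.87), Itgb4, an integrin subunit of hemidesmosomes (104.11), Nanp, a phosphatase of sialic acid synthesis (104.11), Zfp991 (103.70) and Rprd1a, a binding partner of RNA polymerase II (103.26). Smc4 was the most isolated of them, with 39978 bp to the nearest FAD and 36953 bp to the nearest HFD peak. The windows of Ggt5, Itgb4 and Zfp991 also held a FAD and an HFD peak.

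Gene lists of fat biology, of other cell types and of genes with known promoter methylation were chosen with earlier results of these data known. Of 833 measured genes on 19 lists, 20 (2.40%) had an ND-only region at a gene-start window, against 1.67% of all genes. Single lists ran from 0% to 8%, on counts of 0 to 3 genes. None did among 27 adipocyte markers, 53 genes of lipid synthesis, storage and lipolysis, 52 of insulin and IGF signalling, 39 thermogenic and mitochondrial genes, 50 of cAMP signalling, or 32 of DNA methylation and demethylation. HFD-only regions were present at 6, 6, 3, 4, 5 and 3 genes of these lists, where the background is 5.71%, and FAD-only regions at 1, 1, 0, 0, 2 and 0, where it is 1.25%. The zeros did not hold under every setting, since insulin and IGF signalling had 2 genes with lists of equal length and 1 at 50% reciprocal overlap, and cAMP signalling had 2 at 50% reciprocal overlap. None of these counts is a test. Of the genes named below, the strand is not known for Slc25a32, Ebf2, Nos2, Per2, Lum, Lyve1, Tdrd6, Dppa4, Hoxb6 and Hoxb7. Their regions may therefore lie at either end of the gene.

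Of 56 one-carbon genes, whose products carry and use folate or recycle homocysteine, 3 (5.36%, 1.84% to 14.6%) had an ND-only region at the window, beside 1.67% of all genes, against 6 with an HFD-only region and none with a FAD-only region. The count was 4 with lists of equal length, 1 with windows of 1000 bp or with no other peak within 5000 bp, and 0 with the upper 50% of scores or at scores of at least 75. The 3 scores had a median of 60.15, below the 64.15 of all ND-only regions. At Slc25a32, the mitochondrial folate carrier, the region was chr15:39114204-39114568 (62.53), 3432 bp from a FAD and 3355 bp from an HFD peak. At Mthfsl, a gene like that of methenyltetrahydrofolate synthetase, it was chr9:88720606-88720990 (60.15), with 28546 bp to FAD and 28554 bp to HFD. At Cbs, cystathionine beta-synthase, which takes homocysteine out of the methionine cycle, it was chr17:31638420-31638887 (59.12), with 2191 and 2162 bp. None of the 3 windows held a FAD or HFD peak.

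Of 38 genes of adipogenesis and adipokines, 2 (5.26%, 1.46% to 17.3%) had such a region, beside 1.67% of all genes. An HFD-only region was present at 3 of the 38 and a FAD-only region at 1. The ND-only count was 0 with windows of 1000 bp. Gata2, a transcription factor that restrains adipocyte differentiation in mouse, had chr6:88196210-88196995 (102.12). This region lay 1669 bp from an alternative start inside the record, 4912 bp from a FAD and 1185 bp from an HFD peak. Ebf2, a transcription factor of brown and beige fat precursors, had chr14:67231700-67232266 (79.60), 14587 and 12264 bp away. Among 55 inflammation genes the 2 members (3.64%) were Nos2, inducible nitric oxide synthase (65.58), and Trem2, a receptor of lipid-associated macrophages (64.66), which had 2 ND-only regions. The inflammation count was 0 with the upper 50% of scores, at scores of at least 75 or with no other peak within 5000 bp. Among 25 clock genes the 2 members (8%) were Arntl2, a partner of CLOCK, and the repressor gene Per2 (63.03). The clock count was 0 with the upper 50% of scores or with no other peak within 5000 bp. The Arntl2 region, chr6:146805052-146805317 (87.95), reached the window printed above, at an alternative start, and lay 10744 bp from a FAD and 2544 bp from an HFD peak.

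The lists of markers of other cell types had 1 gene each, which is 2.38% to 3.85% of their members beside 1.67% of all genes. The collagen-binding proteoglycan gene Lum, on both the matrix and the mesothelial and fibroblast lists, had chr10:97563228-97563548 (75.48). Lyve1, a marker of lymphatic endothelium (83.59), the B-cell receptor component Cd79a (56.09) and the beta-defensin gene Defb26 (54.39) were the only members on the endothelial (26 genes), leukocyte (42) and epididymal (36) lists. The Cd79a window also held a FAD and an HFD peak. In bulk tissue a change in the share of a cell type and a change of methylation within a cell type cannot be told apart.

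Of 56 germline genes, whose promoters are often methylated in somatic tissue, 33 had an ND peak at the window. Over all genes with such a peak, 12.2% had an ND-only region at the window. In the germline list 3 genes did (5.36% of 56, 1.84% to 14.6%), beside 1.67% of all genes. These were Tdrd6 (62.41), Figla (53.60), whose region lay 58 bp from an HFD peak, and Dppa4 (51.83). The count was 1 with lists of equal length and 0 at scores of at least 75. The imprinted list had Slc22a2 and Plagl1 (87.75, 231 bp from an HFD peak) among 51 genes (3.92%), of which 21 had an ND peak. Rps6 was the 1 housekeeping gene of 52 (1.92%), and Tbx18 (68.12) the 1 developmental transcription factor of 99 outside the Hox clusters (1.01%).

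Among gene families the share varied around the background. Olfactory receptors had 3 of 1104 genes with an ND-only region (0.272%, 0.0925% to 0.796%), vomeronasal receptors 1 of 354, Zfp zinc finger genes 4 of 388 and cytochrome P450 genes 0 of 99. Keratins had 4 of 53. The ribosomal protein set, which also holds kinase genes such as Rps6ka1, had 4 of 89. Both sets had many genes with an ND peak at the window (26 and 29 genes). The strongest keratin region, at Krt32 (89.93), ended 1 bp from the start, had no FAD or HFD peak within 14848 bp, and covered 49 bases of a promoter window with 2 CpGs. Clustered protocadherins had 3 of 57 (5.26%) and Hox genes 2 of 39 (5.13%), Hoxb6 and Hoxb7, which share 1 region (55.24).

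Inside gene records, 3874 genes (18.7%) held an ND-only region, against 39.1% with an HFD-only and 15% with a FAD-only region. These genes were long, with a median record of 64.5 kb against 17.5 kb over all genes. The share was 3.27% among records under 10 kb, 28.6% at 30 to 100 kb and 80.9% at 300 kb and above. Per Mb the order was the opposite, with 8.04 ND-only regions per Mb in records under 10 kb and 3.66 per Mb in the longest. Of all ND peaks in the records, between 9.47% and 12.4% were ND-only over the 5 length classes.

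Counts by list within records have to be read against record length and against the 18.7% of all genes with such a region. Collagen genes had 20 of 42 (47.6%, median record 110 kb), cAMP signalling 20 of 50 (40%, 85.8 kb) and extracellular matrix 20 of 56 (35.7%, 46.5 kb). Insulin and IGF signalling had 17 of 52 (32.7%, 68.8 kb), including Igf1r, Irs1, Akt2 and Mtor. Lipid genes had 13 of 53 (24.5%, 22.3 kb), including Acaca, Scd1, Cd36 and Lipe. Of the genes of DNA methylation, 7 of 32 (21.9%, 22.55 kb) had one in the record, among them the maintenance methyltransferase gene Dnmt1, its partner Uhrf1 and the oxidases Tet2 and Tet3. Of the one-carbon genes, 9 of 56 (16.1%, 22.1 kb) had one, among them Mthfd1, Ahcy and Psat1.

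The gene with the most ND-only regions was Wwox, a tumour suppressor gene that spans a common fragile site. It held 18 of them among 93 ND peaks (19.4%), and its 913 kb record held 86 FAD and 109 HFD peaks. Cdh13, which encodes T-cadherin, a receptor for adiponectin, held 12 among 70 ND peaks (17.1%), with 52 FAD and 97 HFD peaks. The zinc transporter gene Slc39a11 held 10 among 52 ND peaks, with 39 FAD and 61 HFD peaks. Foxn3, Tiam1 and Trio held 9 each, among 40, 48 and 33 ND peaks.

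Dpp10, an accessory subunit of voltage-gated potassium channels, also held 9, and there the share was 52.9% of 17 ND peaks. Its 1514 kb record (chr1:123332138-124845815) held 11 FAD and 14 HFD peaks. The gene was singled out after its values were seen.

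Along the chromosomes the ND-only regions were spread evenly. Their share of the ND peaks ran from 11.3% on chromosome 17 to 13.3% on chromosome 2 (12.5% to 14.1%), and their density from 4.15 per Mb on chromosome 1 to 5.48 per Mb on chromosome 8. Counting along all merged regions in order, 10141 ND-only regions (85.9%) had no ND-only region as direct neighbour, against 55.8% of HFD-only and 88.6% of FAD-only regions. Runs of 3 or more numbered 61, and the longest held 4.

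Some windows departed from this, with the highest shares on distal chromosome 2. In windows of 500 kb with at least 10 ND peaks, of which there were 4120, the ND-only share had a median of 11.5% (quartiles 7.14% and 16.7%) and reached 50% in 4. The highest values, 11 of 20 ND peaks (55%) each, were in 2 neighbouring windows on distal chromosome 2, chr2:175500001-176000000 and chr2:176000001-176500000. The first held 7 FAD and 7 HFD peaks against its 20 ND peaks, and the second 8 FAD and 10 HFD peaks. ND exceeded both other libraries in 170 of the 4120 windows (4.13%). These windows and the stretch described next were chosen after their values were seen.

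Over chr2:175000001-178000000, 52 of 130 ND peaks were ND-only (40%, 32.0% to 48.6%), where the FAD list had 74 peaks and 7 FAD-only regions and the HFD list had 79 peaks and 11 HFD-only regions. Each of the 6 windows held more ND than HFD peaks, although the HFD list is longer overall. The 52 regions had a median score of 77.5, and 10 of them (19.2%) reached 100, against 6.36% of all ND-only regions. Their median gap to a FAD or HFD peak was 16517.5 bp, and 44 (84.6%) were more than 5000 bp away.

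The strongest were chr2:176634532-176634941 (171.23, in Gm14308), chr2:175336453-175336716 and chr2:177499722-177499959 (168.05 each). The stretch holds 30 protein-coding genes, most with provisional Gm symbols, and 7 zinc finger genes, namely Zfp965, Zfp966, Zfp967, Zfp968, Zfp970, Zfp972 and Zfp973. Zinc finger clusters of this kind are known to hold near-identical copies side by side, and the treatment of reads that map to several copies is not given in these sources, so its part in these counts was not tested. Of the 52 regions, 17 lay in coding records and 0 at gene-start windows. With lists of equal length the ND-only share was 44.3%, and with the upper 50% of scores it was 38.6%.

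Among the windows at 50% or above was also chr2:122500001-123000000 (10 of 20 ND peaks, with 9 FAD and 17 HFD peaks), which holds Gatm, the first enzyme of creatine synthesis, the zinc transporter gene Slc30a4 and Sqor, a sulfide oxidase gene. It also had 8 HFD-only regions and 1 FAD-only region, and more ND peaks than FAD or HFD peaks. The last of the 4, chr14:3500001-4000000 (7 of 13 ND peaks, with 13 FAD and 16 HFD peaks), holds Gm genes, and 7 HFD-only regions lay beside its 7 ND-only regions. Its neighbours were high as well. In chr14:4000001-4500000, 6 of 15 ND peaks were ND-only (40%), with 14 FAD and 12 HFD peaks. In chr14:4500001-5000000, 7 of 15 were (46.7%), with 13 FAD and 15 HFD peaks. In chr14:3500001-4000000, which also had 4 FAD-only regions, each library thus had regions of its own, and ND peaks did not outnumber the others. Distal chromosome 2 had more ND peaks than FAD or HFD peaks.

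**Figure D5:**
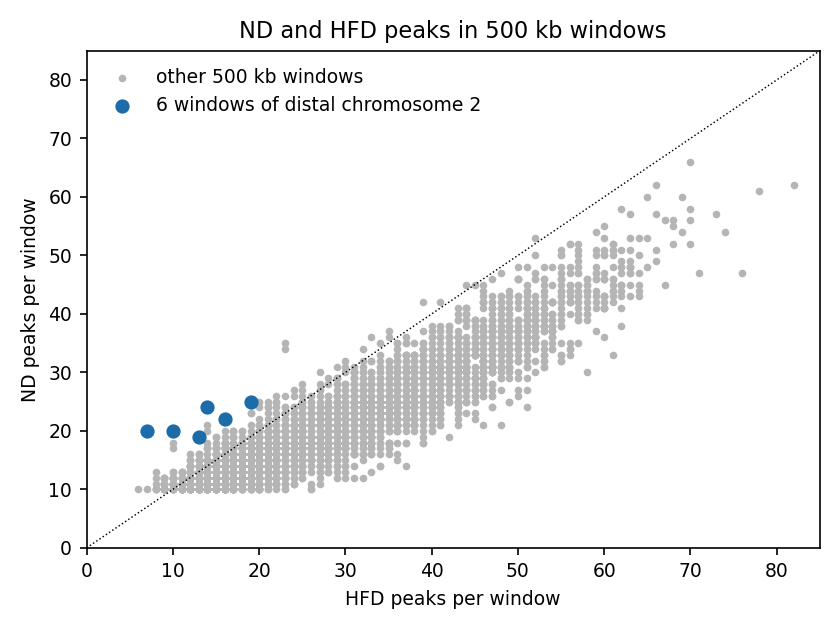
ND peaks against HFD peaks per 500 kb window with at least 10 ND peaks, with the line of equal numbers dotted. The 6 windows of distal chromosome 2 (blue) all lie above the line, with 19 to 25 ND peaks and 7 to 19 HFD peaks, while most other windows lie below it.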

How the data were processed

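MeDIP-seq peak lists were analysed from 1 library of epididymal fat per diet, grouped by the labels. Per the labels' protocols, DNA came from a Qiagen column kit and the libraries from an Illumina TruSeq guide. The submitters' processing notes name build mm10. The authors called peaks in each library separately and deposited a score for every peak. Per the peak names in the deposited files the caller was MACS. The aligner, the caller's version and control, the handling of duplicate and multiply mapped reads, the scale of the score and the read depth were not given in the sources used here. A peak that is missing from a list therefore did not pass the caller's threshold in that library, which can depend on depth as well as on methylation.

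Peaks on the autosomes were pooled and merged at an overlap of 1 bp. bedtools 2.31.1 merged to the same 11804 regions, and the code was tested on simulated intervals. Genes came from the RefSeq table of GRCm38.p6, which gives no strand or exons. Starts and strand were taken from the RefSeq promoter table, which placed 16457 of 20665 genes (79.6%), and windows were set at both record ends for the rest. Exons, introns and the sequence under peaks outside promoters were not analysed here.

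Python 3.11.15, numpy 2.4.6, pandas 2.3.3, statsmodels 0.14.6 and matplotlib 3.10.9 were used. Shares carry Wilson 95% intervals, and no test was run, since each group has 1 library. The regions, lists and families were chosen with earlier results of these data known. The text names the 10 highest-scoring regions, the 10 highest with no FAD or HFD peak within 5000 bp, the 20 genes with the highest-scoring region at a window, up to 3 genes per list, all one-carbon genes, the 5 records with the most regions and those tied with the fifth, the 5 widest and 5 farthest regions and those at the lowest score. One region that this rule names is not reported here. Provisional Gm and Rik symbols were not named in the gene rankings. The distal chromosome 2 stretch, the 500 kb windows, the microRNAs and the closest regions were chosen after their values were seen. Alternatives were lists of equal length, the upper 50% of scores, a score of at least 75, merging within 500 bp, 50% reciprocal overlap, no merging, absence of other peaks within 1000 or 5000 bp, sex chromosomes included, windows of 1000 bp, midpoints and whole records.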

Additional observations from a re-analysis of the deposited data

How the results depend on the processing

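The number of ND-only regions, 11804, lay between 9094 and 15132 under the other settings, except that it was 5154 with the upper 50% of scores, 4734 with no FAD or HFD peak within 5000 bp and 3273 at scores of at least 75. In these 3 settings the genes with a region at a window numbered 165, 139 and 100 in place of 345, and the list members 9, 6 and 8 in place of 20. List members were 10 with windows of 1000 bp and 164 over whole records. The share at gene-start windows, 2.85%, was 3.20% with lists of equal length, 2.41% with windows of 1000 bp and 2.46% by midpoints. The share in coding records, 46.9%, was 49.2% with lists of equal length, where it exceeded the 48.5% of shared ND regions, 42.4% with no other peak within 5000 bp, 48.3% at scores of at least 75 and 44.3% with the sex chromosomes. The cause of these shifts was not tested beyond what the settings leave out. The other 32 values of these results stayed within a factor of 1.5 for counts or within the interval for shares. The ND-only share on distal chromosome 2 stayed between 37.7% and 44.3%. Of 23 regions named for score, isolation, width or distance, between 16 and 23 stayed ND-only.

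With 1 library per diet, neither the variation between animals nor that between libraries can be measured. The unknown read depth limits every count, since a weak methylated region can miss the threshold in a shallower library, and most ND-only regions score near that threshold. No paired analysis was possible because each diet has a single library.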

Other observations

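The sex chromosomes were left out of the regions above. On the X chromosome, 534 of 3160 ND peaks were ND-only (16.9%, 15.6% to 18.2%), against 571 of 3152 HFD peaks that were HFD-only (18.1%, 16.8% to 19.5%) and 353 of 2875 FAD peaks that were FAD-only (12.3%, 11.1% to 13.5%). On the Y chromosome, 400 of 2309 ND peaks were ND-only (17.3%, 15.8% to 18.9%), against 187 of 1879 HFD peaks that were HFD-only (9.95%, 8.68% to 11.4%) and 387 of 2274 FAD peaks that were FAD-only (17.0%, 15.5% to 18.6%). On the Y chromosome the HFD list was the shortest of the 3, whereas on the autosomes it was the longest. The ND-only regions of the X had a median score of 65.8, and those of the Y 71.9.

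Clusters of vomeronasal receptor genes on chromosome 7 also held windows with more ND than HFD peaks, noticed after their values were seen. The window chr7:21500001-22000000, with Vmn1r130 to Vmn1r137, had 28 FAD, 23 HFD and 35 ND peaks, of which 9 were ND-only. The window chr7:20500001-21000000, with Vmn1r103 to Vmn1r118, had 25 FAD, 23 HFD and 34 ND peaks, of which 10 were ND-only.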
